A study of Mus musculus with 6 samples.

Results

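A single map of lamina contacts is described here, made by DamID with Dam-LmnB1 in mouse embryonic fibroblasts (MEFs) after RNAi against LmnA. MEFs are connective tissue cells grown from embryos. The map is the ratio of a Dam-LmnB1 library to a Dam-only library, and its members are the lamina-associated domains (LADs) of the deposited list on chromosomes 1 to 19. These were 1680 of the 1768 LADs of this map, and of the 5339 LADs in the lists of the 3 maps of the series. The signal came from 5972542 GATC fragments on the same chromosomes, with a median length of 260 bp. All positions are in the mm9 build.

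Both libraries came from wild type C57BL/6 cells that had received lentiviral shRNA against LmnA and were selected with puromycin at 2 µg/mL. A second lentivirus then brought either Dam alone or Dam fused to lamin B1. Each group was 1 library out of the 6 in the series, so no replicate test was possible and no p-value is given. The other maps used below for comparison were LmnC RNAi with Dam-LmnB1 and LmnB1 RNAi with Dam-LmnA, each with its own Dam-only library. All had shRNA, and a map of cells without it was not analysed here. RNA and protein were not measured, so neither the loss of lamin A nor the fibroblast identity could be checked in these files.

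The nuclear lamina is a mesh of lamin filaments under the inner nuclear membrane. Lamin A and lamin C are splice products of Lmna, and lamin B1 is made from Lmnb1 and stays anchored at the membrane through its farnesyl group. LADs are long stretches of chromatin that touch this mesh, and they are known to be poor in genes and low in transcription in fibroblasts. Dam methylates adenine in GATC, so a fusion to lamin B1 marks sequence near the lamina, and Dam alone records how accessible each fragment is to the enzyme. A positive log2 ratio therefore stands for more methylation by the fusion than by Dam alone. In what follows the strength of a LAD is the mean log2 ratio of its fragments, weighted by fragment length.

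Fragments read in one library alone shaped the deposited values. A very small number was added to the reads before the log, so a fragment with 0 reads in one library has a value above 12 in size. Fragments read only in the fusion library made up 16.8% of all fragments and 7.30% of fragment length, and those read only in the Dam-only library 8.34% and 3.94%. A further 29.4% of fragments, with 10.04% of the length, held the value that stands for 0 or equal reads in both libraries. Single-library fragments were mostly short: they were 34.3% of fragments under 500 bp and 1.68% of longer ones. The fusion-only fragments held 2807459 reads and the Dam-only fragments 1375859, and the total depth of the libraries is unknown. Strength is given below from all fragments as deposited, and again without single-library fragments, where the level is smaller and the error lower.

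LADs held most of the autosomal genome in this map. They covered 66.8% of fragment length, and the share ran from 53.2% on chromosome 11 to 73.7% on chromosome 14 (mean 66.4%, SD 4.94 over 19 chromosomes). Their summed length was 1619.7 Mb, and 50% of it lay in LADs of at least 1.83 Mb. The median LAD was 516 kb long, with an interquartile range from 248 to 1148 kb, and the longest reached 12.98 Mb. The 1661 stretches between neighbouring LADs were shorter, with a median of 206 kb and an interquartile range from 84.1 to 534 kb.

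The mean log2 ratio was 1.96 inside LADs (SD 0.10 over 19 chromosomes) and -1.95 outside them (SD 0.15). The difference was 3.91 (SD 0.20), and 1.99 (SD 0.09) without single-library fragments, where the means were 0.77 and -1.22. Fragments of at least 500 bp, nearly all read in both libraries, gave 0.89 inside and -1.37 outside, a difference of 2.26. The LADs were drawn by the authors from this signal, so the contrast describes the map and is not a test of it. Size classes of fragments differed in scale: those of 100 to 250 bp had 6.15 inside and -3.22 outside, and those of 2000 bp and over 0.64 and -1.08. The makeup of the fragments turned over at the same time. Inside LADs 21.5% of fragments were read only in the fusion library and 4.73% only in the Dam-only library, against 6.85% and 16.1% outside.

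LADs differed widely in strength. The lowest of the 1680 LADs had -0.62, the median LAD 1.70 and the highest 3.42, with an interquartile range from 0.88 to 2.29. Stretches between LADs ran from -4.53 to 0.94 with a median of -1.72. The distributions overlapped in part: 86 LADs (5.12%) were below 0, and 44 inter-LAD stretches (2.65%) were above 0. In all, 463 LADs were below the highest inter-LAD stretch, and 26 (1.55%) were below the 95th percentile of these stretches, -0.23. For scale, 65.1% of all 23944 autosomal bins of 100 kb were above 0. Among LADs 94.9% were above 0, a share that follows from how LADs were drawn.

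Single-library fragments carried many weak LADs across 0. Without them the median LAD had 0.59, the lowest -0.85 and the highest 1.49, and 323 LADs (19.2%) lay below 0. Over the 100 kb bins the share above 0 was then 58.6%. With every fragment counted equally, whatever its length, the lowest LAD had 0.03 and none of the 1680 was below 0, although 58 inter-LAD stretches were still above it.

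The spread between LADs was larger than the error from fragments. The SD of strength over LADs was 0.88. Strength was also computed from odd-numbered and from even-numbered fragments apart. Their difference divided by 2 had an SD of 0.15 over LADs, the odd-to-even error, and both sets had Pearson r = 0.94 over 1680 LADs. Without single-library fragments the SD over LADs was 0.51, the error 0.06 and r 0.97. Odd and even fragments share the same libraries, so this error leaves out differences between cultures and between library preparations.

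**Figure D1:**
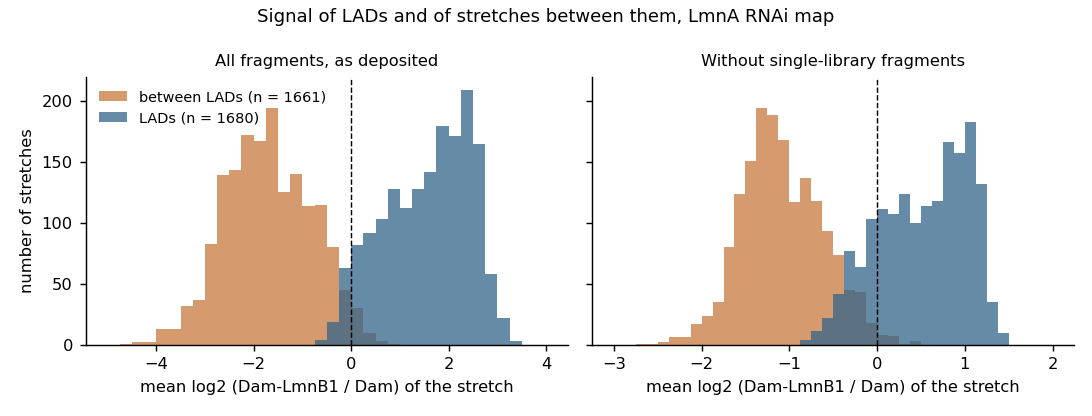
Number of stretches (y axis) by mean log2 ratio of Dam-LmnB1 over Dam-only reads (x axis), for 1680 LADs (blue) and 1661 stretches between LADs (orange), with all fragments as deposited (left) and without single-library fragments (right). LADs have a peak above 2 and a long shoulder down to 0 in the left panel, and 323 of them lie below 0 in the right panel.

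Longer LADs were stronger, up to about 1 to 2 Mb. Lengths and strengths both come from this signal, so the relation describes the map and is not a test. Spearman's coefficient between strength and length was 0.49 over 1680 LADs, and it lay between 0.27 (chromosome 10) and 0.63 (chromosome 17) within the 19 chromosomes. LADs under 200 kb (304) had a median strength of 0.94, and those of 200 to 500 kb (517) had 1.22. The median was 1.78 in the 369 LADs of 500 kb to 1 Mb and 2.19 in the 282 LADs of 1 to 2 Mb. Beyond that it hardly moved, at 2.30 in 180 LADs of 2 to 5 Mb and 2.18 in 28 LADs of 5 Mb and over. The Spearman coefficient was 0.32 among the 1190 LADs under 1 Mb, 0.13 among the 490 of at least 1 Mb and -0.02 among the 208 of at least 2 Mb. Without single-library fragments the medians of these classes were 0.13, 0.30, 0.67, 0.91, 0.98 and 0.90.

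Strength was also less spread among long LADs. The mean of a long LAD averages more sequence, and the part of this in the smaller spread was not tested. The SD of strength was 0.86 in LADs under 200 kb and 0.85 in those of 200 to 500 kb. It was 0.80, 0.67, 0.39 and 0.29 in the classes of 500 kb to 1 Mb, 1 to 2 Mb, 2 to 5 Mb and 5 Mb and over. The odd-to-even error fell as well, from 0.24 in the shortest class to 0.05 in the longest, and the SD left after taking it off was 0.83 and 0.28. Of LADs under 200 kb 52.0% had a strength below 1, against 1.67% of LADs of 2 to 5 Mb and 0 of 28 longer ones. The strongest 10% of all LADs held 15 of the 304 shortest LADs (4.93%), 53 of 282 LADs of 1 to 2 Mb (18.8%) and 1 of 28 LADs of 5 Mb and over (3.57%).

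**Figure D2:**
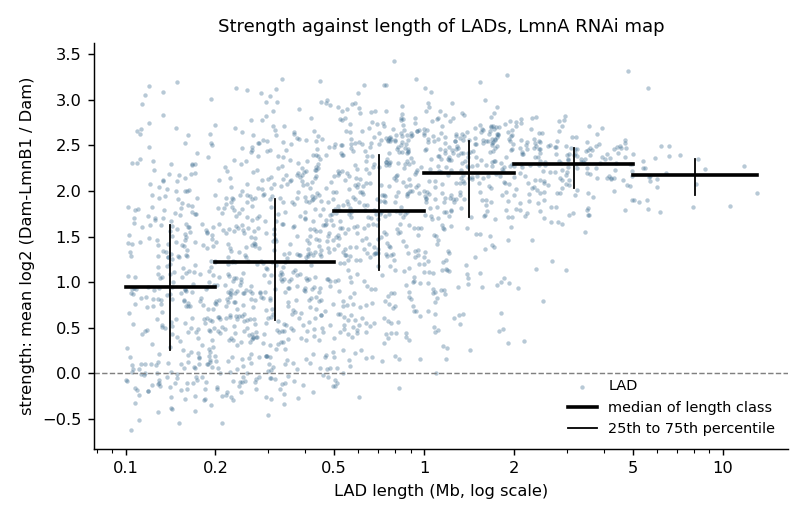
Strength of each of 1680 LADs (y axis, mean log2 ratio of Dam-LmnB1 over Dam-only reads) against its length (x axis, Mb, log scale), with the median (thick bar) and the 25th to 75th percentile (thin line) of 6 length classes. The medians rise from 0.94 to 2.19 between the shortest class and 1 to 2 Mb and stay between 2.18 and 2.30 above it, where the points also close up.

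Both kinds of single-library fragment changed unequally with length. Fusion-only fragments took 7.71% of the length of LADs under 200 kb and 10.3% of LADs of 5 Mb and over. The Dam-only share did not follow a course with length, at 2.60% and 2.57% in the same classes and 2.01% in LADs of 1 to 2 Mb. GATC sites were about equally dense in all length classes, at 2.53 to 2.58 fragments per kb.

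The density of GATC sites moved with strength, however. The Spearman coefficient between fragments per kb and strength was 0.33 over the 1680 LADs, and 0.25 without single-library fragments. Cut into equal classes of 560 LADs by density, the median strength was 1.24 at the lowest density (median 2.39 fragments per kb), 1.75 at 2.52 and 2.06 at 2.72. Its part in the order of LADs by strength was not tested. The relation of strength to length was as large within each density class, with Spearman coefficients of 0.46, 0.53 and 0.50.

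The signal rose steeply at the border and then climbed slowly inward. Over 979 borders of LADs of at least 400 kb with at least 200 kb of inter-LAD beside them, the mean of the first 50 kb inside lay 2.97 above that of the first 50 kb outside (SD 1.20 over borders). The inner side was higher at 976 of the 979. Without single-library fragments the step was 1.35 (SD 0.66). Borders were placed by the authors on this signal, so the step is a description.

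The climb inside is given for LADs of 2 to 5 Mb. Outside their borders the mean was -1.93 ± 0.12 (SE over 171 borders) at 175 to 200 kb and -1.54 ± 0.08 in the last 25 kb. Inside it was 1.55 ± 0.08 in the first 25 kb, 1.91 ± 0.10 at 100 to 125 kb, 2.13 ± 0.09 at 200 to 225 kb and 2.30 ± 0.08 at 475 to 500 kb (170 borders). The step thus made up most of the range, and the slow climb the rest. Without single-library fragments the first 25 kb had 0.37 ± 0.04 and the bin at 475 to 500 kb 0.99 ± 0.04, so there the climb was a larger part of the whole. LADs of 1 to 2 Mb climbed about as far, from 1.30 ± 0.06 over 260 borders to 2.12 ± 0.08 over 258. The rise outside was not seen in every class. Over borders of all classes the outside mean was -1.82 ± 0.04 at 175 to 200 kb and -1.78 ± 0.03 in the last 25 kb. Beside LADs under 200 kb it was -1.73 ± 0.08 and -1.98 ± 0.07.

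LADs under 500 kb were weaker from the border on. In the first 25 kb the mean was 0.78 ± 0.06 over 315 borders of LADs under 200 kb and 0.90 ± 0.05 over 540 borders of LADs of 200 to 500 kb, against 1.55 ± 0.08 in the class of 2 to 5 Mb. The longest LADs did not go on upwards: those of 5 Mb and over had 1.41 ± 0.18 over 26 borders. At a fixed distance of 25 to 50 kb inside the border, the Spearman coefficient between signal and LAD length was 0.25. For whole LADs it was 0.49. These windows hold less sequence than whole LADs, so their error is larger, and its part in the lower coefficient was not tested.

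**Figure D3:**
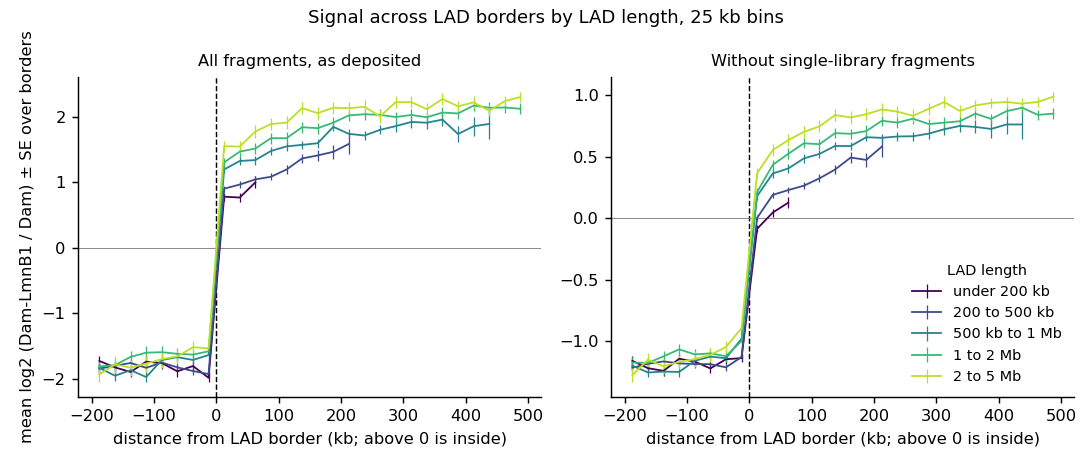
Mean log2 ratio of Dam-LmnB1 over Dam-only reads (y axis, error bars are the SE over borders) in 25 kb bins by distance from the LAD border (x axis, kb, inside is above 0), for 5 classes of LAD length, with all fragments (left) and without single-library fragments (right). Signal jumps at the border in every class, classes of LADs up to 5 Mb run higher with length in the first bin (LADs of 5 Mb and over are not drawn), and the curves go on rising over several bins inside.

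LADs were uneven along their length. The 859 LADs of at least 500 kb held 27275 bins of 50 kb, and the SD of bins around the mean of their own LAD was 0.89. The odd-to-even error of a bin was 0.46, and taking it off left 0.76. This was about as large as the SD between the means of the same LADs, 0.72. Deviations from the LAD mean were repeated between odd and even fragments with r = 0.59, and with r = 0.76 without single-library fragments, where the SD within LADs was 0.46 and the error 0.17. At 100 kb or more from a border the SD within LADs was 0.87, nearly as large as over all bins.

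The unevenness had a short range. Deviations of bins from their LAD mean had r = 0.36 at 50 kb, 0.23 at 100 kb and 0.10 at 200 kb, and no positive relation at 500 kb (-0.04). The SD of bins in a single LAD had a median of 0.84, with an interquartile range from 0.71 to 0.997. It changed little with strength (Spearman -0.18) or with length (0.13). In LADs ranked on strength and cut into 4 equal classes, the median SD was 0.76 in the weakest, 0.88 and 0.93 in the middle ones and 0.78 in the strongest.

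Low bins were common inside LADs and rarely long. Of the 27275 bins 1148 (4.21%) were below 0, and 428 of the 859 LADs (49.8%) held at least 1. Without single-library fragments 9.18% were below 0. Odd and even fragments were both below 0 in 678 of these bins. The share below 0 was 7.88% within 100 kb of a border and 3.68% farther in (7.70% farther in without single-library fragments). The low bins formed 868 runs, of which 662 (76.3%) were 1 bin and 57 were 3 or more bins, and the longest was 300 kb. Bins as low as the median inter-LAD stretch were rare, at 14 of 27275, each in a LAD of its own. LADs were drawn on this signal, and inter-LAD stretches go down to 25.1 kb. Long or deep low runs may thus have been cut out of LADs, so these counts are a description.

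The 3 LADs of at least 1 Mb with the largest SD of bins joined strong blocks to weak ones. At chr6:89415746-90476611 the SD was 1.51 over 21 bins (error 0.39), with 12 bins above 2 and 4 below 0. The lowest bin, 90315746 to 90365745, had -0.82, and the highest, 90065746 to 90115745, had 3.89. The LAD at chr11:21023610-22734263 had an SD of 1.50 over 34 bins (error 0.42), from -1.19 at 22173610 to 22223609 up to 4.24 at 21623610 to 21673609. At chr19:33125770-34240106 the SD was 1.50 over 22 bins (error 0.52), from -0.63 to 3.64. The strength of this last LAD, 1.71, was also one of the 3 nearest to the median of all LADs among those of at least 500 kb, and it came from 11 bins above 2 and 4 below 0.

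The signal was higher where the other maps, from separate libraries, also had LADs. LmnC RNAi LADs overlapped 57.7%, 45.7% and 56.6% of the length of the LADs on chromosomes 6, 11 and 19. The LmnA RNAi signal inside the covered parts was 2.91, 2.64 and 2.86, and in the rest 0.02, 0.33 and 0.20. Without single-library fragments it was 1.14, 1.07 and 1.26 in the covered parts and -0.44, -0.16 and -0.12 in the rest. Against LADs of the LmnB1 RNAi map the covered parts had 2.36, 2.65 and 2.93 and the rest -0.32, 0.37 and 0.29.

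The LADs of at least 1 Mb with the smallest SD of bins were more even. The LAD at chr6:129549699-131238189 had an SD of 0.43 over 33 bins, no larger than the error of 0.44, and its lowest bin had 1.54. That at chr19:7696922-8760358 had an SD of 0.46 over 21 bins (error 0.29), with bins from 1.84 to 3.58. Both were strong (2.52 and 2.76), and LmnC RNAi LADs took up 98.7% and 99.1% of them.

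**Figure D4:**
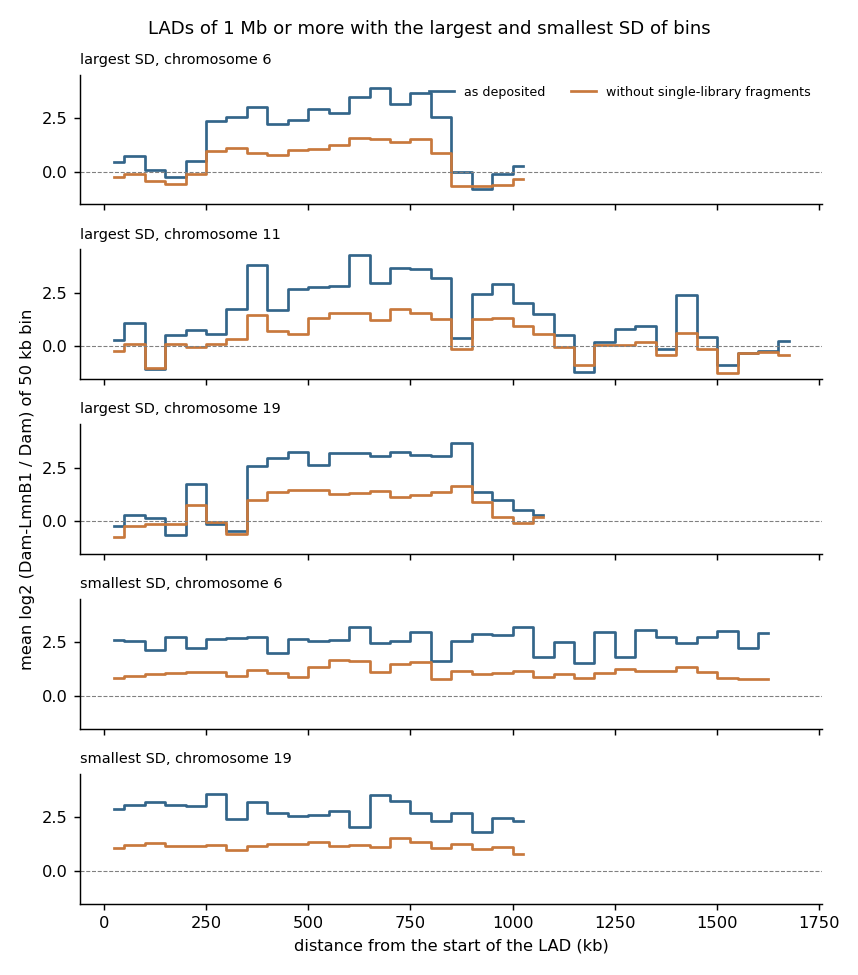
Mean log2 ratio of Dam-LmnB1 over Dam-only reads (y axis) in 50 kb bins by distance from the start of the LAD (x axis, kb), for the 3 LADs of at least 1 Mb with the largest SD of bins and the 2 with the smallest, with all fragments (blue) and without single-library fragments (orange). The upper panels show blocks above 2 beside bins near or below 0, and all bins of the lower panels are at 1.54 or higher in blue.

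The longest LADs were stronger than the median LAD, which had 1.70, or 0.59 without single-library fragments. The LAD at chr15:12309916-25290419 (12.98 Mb) had 1.97 ± 0.03 (SE over 31247 fragments), and 0.81 without single-library fragments. At chr1:95726158-107511952 (11.8 Mb) the values were 2.27 ± 0.03 and 0.97. At chr14:88871836-99400559 (10.5 Mb) they were 1.83 ± 0.04 and 0.77. All 3 lay within the interquartile range of all LADs, 0.88 to 2.29. Without single-library fragments that range was 0.11 to 0.95, and the LAD on chromosome 1 lay above it.

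The strongest LADs of at least 500 kb differed in length, from 0.794 to 4.80 Mb. First was a LAD at chr3:93374772-94169175 (0.794 Mb) with 3.42 ± 0.13, in which 14.9% of the length was fusion-only and 1.42% Dam-only. A LAD at chr2:174304353-179104662 (4.80 Mb) had 3.31 ± 0.06, and one at chr4:59947546-61847336 (1.90 Mb) had 3.27 ± 0.07. The fourth, at chr5:146074043-147015802 (0.942 Mb), had 3.23 ± 0.12. Without single-library fragments they had 1.21, 1.26, 1.45 and 1.49, so their order turned around. Odd and even fragments gave 3.49 and 3.36, 3.26 and 3.37, 3.30 and 3.24, and 3.28 and 3.17, so these 4 LADs cannot be ranked firmly.

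Among LADs under 500 kb the strongest reached the same level. They lay at chr11:9050245-9385377 (335 kb, 3.22 ± 0.21) and at chr2:146384501-146832825 (448 kb, 3.21 ± 0.17). Without single-library fragments they had 1.29 and 1.42. LmnC RNAi LADs took up 100% of both.

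The weakest LADs of at least 500 kb were below 0. First was chr17:7378910-7982941 (604 kb) with -0.26 ± 0.12, where odd fragments gave -0.08 and even fragments -0.42. Next came chr2:28557953-29384095 (826 kb) with -0.16 ± 0.10. The others were chr16:57771349-58273298 (502 kb) with -0.14 ± 0.13 and chr6:52941566-53450869 (509 kb) with -0.10 ± 0.12. Among these 4 only the first was below 0 by more than 2 SE. The SE is over fragments of 1 pair of libraries and the 4 were chosen as the lowest, so this is not a test. Without single-library fragments all were lower, at -0.44, -0.47, -0.40 and -0.55. With every fragment counted equally they were above 0, at 0.35, 0.38, 0.25 and 0.34. LmnC RNAi LADs took up 21.4% and 16.1% of the first pair and 0% of the others, and LmnB1 RNAi LADs took up 0% of all 4. The lowest short LADs were at chr5:5394228-5498916 (105 kb, -0.62 ± 0.27) and chr1:152027958-152237616 (210 kb, -0.54 ± 0.26).

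All LADs were cut into 4 classes of 420 by strength. The weakest class ran up to 0.88 with a median of 0.40, and the strongest began at 2.30 with a median of 2.54. Median length rose over the classes, at 264, 397, 836 and 1054 kb, and the strongest was 3.99 times as long as the weakest. Lengths were drawn on the same signal, so this too is a description. The weakest class held 9.76% of LAD length and 23 LADs of at least 1 Mb, the strongest 38.1% and 221. Weak LADs also stood farther apart: the median distance to the nearer neighbouring LAD was 130 kb in the weakest class, 105 and 89.3 kb in the middle ones and 81.3 kb in the strongest. Fragments per kb were 2.47 in the weakest and 2.64 in the strongest class.

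The classes kept their order in fragments that the ranking did not use. Ranked on odd fragments, the weakest and the strongest class had medians of 0.41 and 2.53 in the even fragments. Odd and even fragments put 1304 of 1680 LADs in the same class, and 0 moved between the weakest and the strongest. Both sets alternate along the same LADs, which were drawn on all fragments, and share the same libraries. This order is therefore not an independent test.

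The order of LADs by strength was shared with the other maps. In the LmnC RNAi map the same classes had median signals of -1.0, 0.14, 1.03 and 1.79, and in the LmnB1 RNAi map -0.42, 0.51, 1.27 and 1.85. The Spearman coefficient with LmnA RNAi strength over the 1680 LADs was 0.92 in the LmnC RNAi map and 0.91 in the LmnB1 RNAi map. These libraries were separate, but the fragments, genome and assay were the same. Without single-library fragments the medians after LmnC RNAi were -0.60, -0.06, 0.45 and 0.84. The relation to LAD length was also seen in these maps over the LmnA RNAi LADs, with Spearman coefficients of 0.48 and 0.52.

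Of all 1680 LADs 294 (17.5%) had no counterpart in the LmnC RNAi list and 303 (18.0%) none in the LmnB1 RNAi list, and most of these were in the weakest class. There 228 of 420 LADs (54.3%) had no bp in a LAD of the LmnC RNAi map, against 58 (13.8%), 5 (1.19%) and 3 (0.714%) in the next classes. Against the LmnB1 RNAi map the numbers were 238, 56, 6 and 3. LmnC RNAi LADs took up 35.8%, 69.7%, 90.2% and 96.5% of the length of the classes, and those of the LmnB1 RNAi map 37.6%, 74.7%, 90.3% and 93.9%. For scale, these LADs held 57.7% and 58.6% of all autosomal fragment length, and 4.33% and 4.72% of the stretches between LmnA RNAi LADs. Each knockdown had 1 map, so how far replicate maps would differ is not known. The LADs were drawn and ranked on the LmnA RNAi map alone, and the part of that choice in these counts was not tested.

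**Figure D5:**
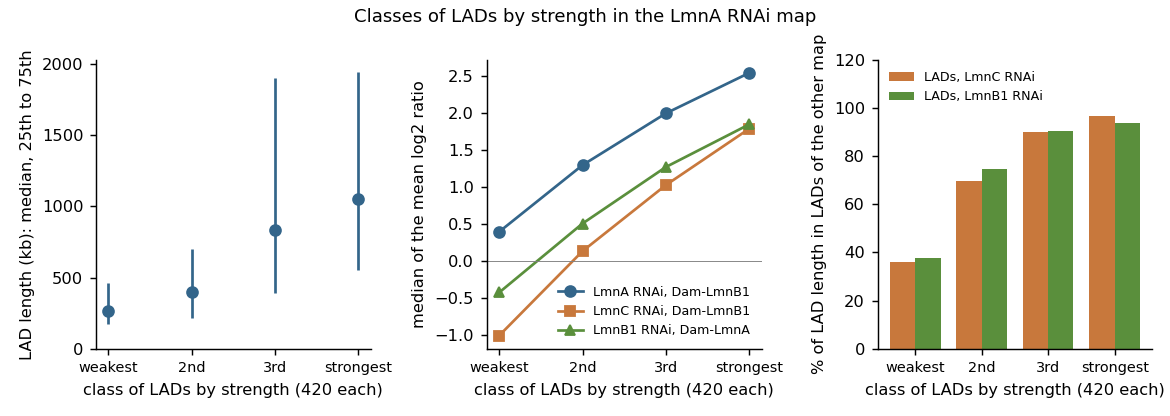
LADs in 4 classes of 420 by strength in the LmnA RNAi map (x axes): LAD length in kb with the median and the 25th to 75th percentile (left), median over LADs of the mean log2 ratio in each of the 3 maps (middle), and percent of LAD length in LADs of the other maps (right). Length, signal in the other maps and cover by their LADs all increase from the weakest to the strongest class, with cover from 35.8% to 96.5% for LmnC RNAi.

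Neighbouring LADs resembled each other weakly. The Spearman coefficient between the strength of a LAD and that of the next on its chromosome was 0.20 over 1661 pairs, and 0.21 after the median of each length class was taken off. It fell with the distance between them, from 0.34 at under 50 kb (212 pairs) through 0.30, 0.22 and 0.14 to 0.06 at 500 kb and over (440 pairs). LADs 2 places apart had 0.06. The lengths of neighbours were unrelated, with a Spearman coefficient of 0.03.

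Between LADs the signal was lower in longer stretches, apart from the shortest. The median was -1.33 in 275 stretches of 50 to 100 kb, -1.41, -1.68 and -1.87 in the next classes up to 1 Mb, and -2.11 in 209 stretches of 1 Mb and over. Stretches under 50 kb (212) had -2.06. Without single-library fragments they had -1.09, against -0.86 at 50 to 100 kb and -1.30 at 1 Mb and over. The stretches were drawn on this same signal, so their relation of signal to length is a description. Over all 1661 stretches the Spearman coefficient between signal and length was -0.15 (SD 0.15 over 19 chromosomes), or -0.02 with every fragment counted equally. For the 1174 of at least 100 kb it was -0.30. Signal between LADs also went with the strength of the flanking LADs (Spearman 0.29).

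Among inter-LAD stretches of at least 200 kb the highest lay at chr10:87099232-87348931, with 0.31, and 88.9% of it was in LADs of the LmnC RNAi map, although the LmnC RNAi signal over the stretch was -0.86. Next were chr5:129466152-129699705 (0.25) and chr2:150579006-150836945 (0.21). Without single-library fragments the 3 had -0.04, -0.02 and -0.26. The lowest lay at chr19:8760359-9202123, with -3.86 (-2.11 without single-library fragments), and 12.5% of its length was Dam-only against 1.70% fusion-only. It begins at the end of the strong, more even LAD on chromosome 19 described above. The others were at chr7:34892733-35181000 (-3.65) and chr2:103392762-103637986 (-3.59).

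Chromosomes differed little in the mean signal inside their LADs. The mean inside LADs was highest on chromosome 7 (2.17) and lowest on chromosome 13 (1.73), with chromosome 15 also at 1.73 and the others between 1.90 and 2.04. Without single-library fragments this mean was highest on chromosome 16 (0.83) and lowest on chromosome 15 (0.63). The median strength of LADs differed more, from 1.31 on chromosome 13 to 1.95 on chromosome 4. The share of LADs in the weakest class ran from 17.8% to 35.7%, and that in the strongest from 17.1% to 35.4%. Strength also differed along chromosomes. In sections of 10% of chromosome length, counted from the start of the mm9 sequence, the median was highest in the first 10% (1.84 over 184 LADs) and lowest from 30 to 40% (1.43 over 166 LADs). Without single-library fragments these sections had 0.69 and 0.45. The density of GATC sites also differed between them, at 2.66 and 2.55 fragments per kb, and its part was not tested.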

How the data were processed

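DamID reads were aligned with Bowtie to mm9, per the submitters' processing notes. Read filters, ratio step and LAD caller: not given in the sources used here. Each deposited value is a log2 ratio of the Dam-LmnB1 over the Dam-only library for each GATC fragment. From the steps of the values, 1e-05 was added to both read numbers and a constant of -0.34 to the result. Deposited LADs are start and end positions, printed with starts counted from 1.

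A fragment belonged to the stretch that holds its middle. Means were weighted by fragment length. A value above 12 in size was read as 0 reads in one library. Bins within LADs were 50 kb long, with at least 50% covered by fragments, in LADs of at least 500 kb. Spearman and Pearson coefficients over LADs describe 1 map and carry no p. The SD over 19 chromosomes, the SE over fragments or borders and the odd-to-even error describe 1 pair of libraries. Calculations used Python 3.11.15, numpy 2.4.6, pandas 2.3.3 and scipy 1.17.1. Some of them were tested on simulated data, with strengths and SDs computed only without single-library fragments. The named regions were the longest, strongest, weakest, most median, and most and least even LADs, and the highest and lowest inter-LAD stretches. The LADs and rules were chosen with earlier results of these data known. Genes are not named, because the gene table at hand is of another build (GRCm38). Chromosomes X and Y were left out.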

Additional observations from a re-analysis of the deposited data

How the results depend on the processing

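Of 67 alternative values for 9 results, 43 moved by less than the SD over 19 chromosomes, 24 moved by more and 0 changed direction. A share or an SD cannot change sign, and the LAD contrast and border step are positive by how LADs were drawn. The 0 therefore says little for these results. For inter-LAD signal against length, the move from -0.15 to -0.02 with equal weights counted as small because the SD was 0.15. The way single-library and short fragments are treated set the size of the signal. In the order single-library fragments left out, 1 read added to them, fragments at the constant left out, all fragments weighted equally, and fragments of 500 bp or more (the last chosen after seeing the data), the LAD to inter-LAD difference was 1.99, 2.03, 4.36, 5.72 and 2.26 (3.91 as reported). The step at borders was 1.35, 1.40, 3.29, 4.75 and 1.50 (2.97). The SD between LADs was 0.51, 0.50, 0.95, 1.23 and 0.58 (0.88), and the SD of bins within LADs 0.44, 0.42, 0.92, 1.25 and 0.58 (0.84). With bins of 10 and 100 kb the last was 1.42 and 0.68. The Spearman coefficient of strength with length was 0.25 at 25 to 50 kb from a border, where less sequence was averaged than in whole LADs. The Spearman coefficient of inter-LAD signal with length was -0.30 from 100 kb on, against -0.02 with equal weights. Total depth is unknown, and 1 library per group leaves the spread between replicates unmeasured. No paired analysis was possible because each group holds 1 library.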

Other observations

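Chromosome X was left out of the values above. It held 86 LADs in this map, which took up 83.1% of its fragment length, more than on any of the 19 autosomes (at most 73.7%). Its mean inside LADs was 2.26 with all fragments, above the autosomal range of 1.73 to 2.17. Without single-library fragments it was 0.629, just below the autosomal range of 0.633 to 0.828.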
